A study of Homo sapiens with 4 samples.

Results

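RNA polymerase III (Pol III) is the nuclear enzyme that makes transfer RNAs, the smallest ribosomal RNA and other short noncoding RNAs. The genes described here are those whose name in the deposited tables was POLR3A, POLR3B, POLR3C, POLR3D, POLR3E, POLR3F, POLR3G, BRF1 or MAF1. All 9 were found among the 51103 gene rows of each table, and all 9 were among the 15030 genes kept by a filter on low counts. They encode 7 subunits found only in Pol III, the initiation factor subunit BRF1 and the repressor MAF1. Transcript levels were measured in AGS, an established human gastric adenocarcinoma line. The FGF2 group was treated with recombinant human fibroblast growth factor 2 at 20 ng/mL and harvested after 24 h, and the group called NC is not spelled out in the labels. The labels attach the same FGF2 treatment text to the NC libraries, so no source used here states what those cells received. Each group had 2 libraries of polyadenylated RNA.

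Pol III is brought to its genes by TFIIIB, a factor made of BRF1 or BRF2 with BDP1 and TBP. At transfer RNA genes TFIIIB is placed by TFIIIC. MAF1 binds the polymerase and holds it back when nutrients or growth signals are low, and phosphorylation by the mTORC1 kinase complex relieves that block. The ERK kinase, which FGF receptors activate, is known to phosphorylate BRF1, and MYC is known to bind TFIIIB. Much of this control therefore acts on proteins, which RNA sequencing does not measure.

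Total counts were 13790335 and 27598608 for FGF2 libraries 1 and 2, and 14073340 and 27325697 for NC libraries 1 and 2. The count of library 1 exceeded that of library 2 at only 2 of 22043 genes for FGF2 and 2 of 22485 genes for NC, where separate libraries would give 1192 and 1214. The counts of library 2 are thus those of a library that includes the reads of library 1. Because the counts are nested, each pair was treated as 1 sample and no test was run, so none of the differences below is checked against replicates known to be separate. The reads of library 2 beyond those of library 1 differed from library 1 by more than counting noise, with 21.9% of 10207 genes in FGF2 and 21.8% of 10575 genes in NC past the 95% point of a chi-square, where counting noise alone gives 5%. No source used here states whether these reads came from a separate library or culture. FGF target genes differed in the direction of the labels, with the phosphatase gene DUSP6 at 4.87 FPKM in FGF2 library 2 and 0.450 FPKM in NC library 2, and ETV4, an ETS transcription factor gene, at 18.5 and 3.54 FPKM. The keratin genes KRT7, KRT8, KRT18 and KRT19 stood between 25.4 and 270.3 FPKM in every library. The epithelial adhesion gene EPCAM, however, was at 0.518 to 1.19 FPKM, CLDN4 at 0.386 to 0.654 FPKM and CDH17 at 0 to 0.0364 FPKM. Of 8 fibroblast markers, 2 reached 1 FPKM in any library, COL1A1 and PDGFRB, and COL1A2 and FAP had 0 counts. The summed fibroblast marker level was 66.0 and 65.8 FPKM in the FGF2 libraries and 123.3 and 125.7 FPKM in the NC libraries, and its part in the values below was not tested. Endothelial markers summed to at most 0.361 FPKM and blood and immune markers to at most 1.07 FPKM. The latter include CD68 at 0 counts, which shares 81.7% of its exon sequence with AC016876.2 on the same strand and is uncertain.

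POLR3A, POLR3D and POLR3G had more transcript in the FGF2 sample, with the largest difference in POLR3G. The other 6 genes, POLR3B, POLR3C, POLR3E, POLR3F, BRF1 and MAF1, did not pass the rule of size used here in either direction, and the POLR3G paralog POLR3GL had less. In bulk RNA, more transcript per cell and more cells with the transcript cannot be told apart. Fold changes are log2 ratios, FGF2 over NC, of counts in the deeper libraries after TMM scaling (trimmed mean of M values), with 0.5 first added to the counts. The 95% intervals given with them are exact binomial ones, which cover counting error only and not that further spread between read sets. The reads of each group were also split into disjoint sets, library 1 and the remaining reads of library 2. To be called higher or lower, a gene needed both FGF2 sets to differ from both NC sets by 1.2-fold or more in 1 direction. By this rule 3 of the 9 genes were higher, POLR3A, POLR3D and POLR3G, and 0 were lower. The same rule took 12.1% of all 15030 genes as higher and 16.3% as lower, and over the 11000 genes averaging 50 or more counts per set it took 12.7% and 13.4%. Among the 4604 genes in the range of these 9 genes' mean counts it took 12.7% and 11%. The median log2 fold change of the 9 genes was 0.36, with 7 of 9 above 0, against a median of 0.00 over all genes, 49.8% of them above 0, and a median of 0.04 over the 4604 genes of like counts, 56.6% of them above 0. The count higher became 6 without FGF2 library 1, 5 without FGF2 library 2, 5 without NC library 1 and 4 without NC library 2, since fewer read sets then had to pass. The shares of all genes taken as higher were then 16.3%, 18%, 16.4% and 17.5% in the same order. Leaving out library 1 of a single group removed no reads, because library 2 holds them, and only pooled the read sets of that group. Scaled by total counts alone, 2 were higher and 0 lower, and the shares of all genes became 8.62% higher and 20.3% lower.

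**Figure D1:**
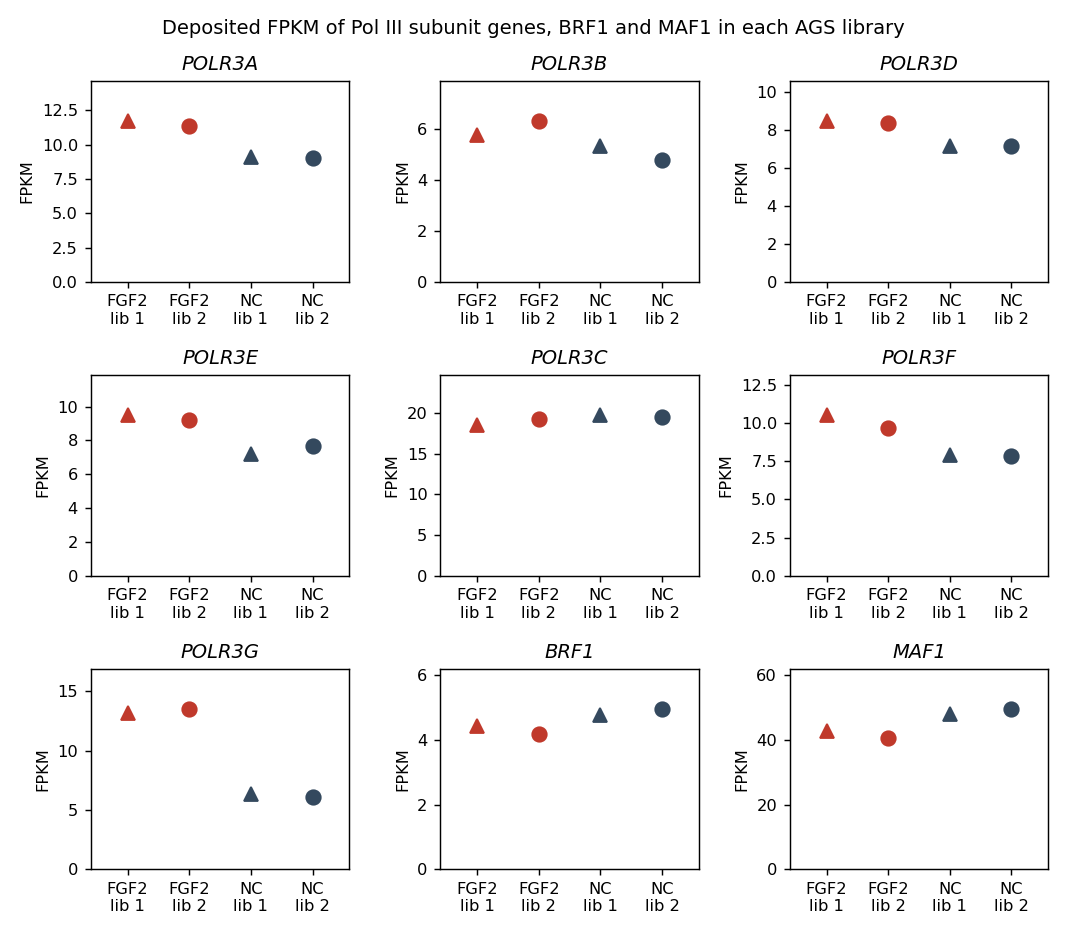
Deposited FPKM values (vertical axes, from 0, each with its own scale) of the 9 genes in each AGS library; triangles are library 1 and circles library 2, which holds the reads of library 1. POLR3G stands at 13.2 and 13.5 FPKM in the FGF2 libraries and at 6.33 and 6.15 FPKM in the NC libraries, while POLR3C lies between 18.5 and 19.8 FPKM in all 4.

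POLR3A and POLR3B encode the 2 largest subunits, which together form the catalytic centre. POLR3A (ENSG00000148606, GRCh38 chromosome 10, 77969251 to 78029545, minus strand) stood at 11.7 and 11.4 FPKM in the FGF2 libraries and 9.12 and 9.06 FPKM in the NC libraries. The FGF2 libraries were both above the NC libraries, and the log2 fold change was 0.41 (95% counting interval 0.33 to 0.50), with 0.46 from library 1 and 0.37 from the remaining reads. POLR3B (ENSG00000013503, chromosome 12, 106357658 to 106510198, plus strand) stood at 5.79 and 6.32 FPKM in the FGF2 libraries and 5.35 and 4.81 FPKM in the NC libraries. Its log2 fold change of 0.48 (0.33 to 0.63) was the second highest of the 9, but its reads were uneven within groups. Library 1 gave 0.21 and the remaining reads gave 0.77, both outside the counting interval, so the gene met neither bound. The NC read sets of POLR3B differed from each other by 0.35 on the log2 scale, where 95% of genes in the same count range differed by at most 0.27. The FPKM ratio of POLR3A to POLR3B was 2.02 and 1.80 in the FGF2 libraries and 1.70 and 1.88 in the NC libraries, and these overlapped. The log2 difference of that ratio was -0.07 (-0.24 to 0.10).

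POLR3D and POLR3E encode a pair of subunits that bind each other and take part in initiation and termination. POLR3D (ENSG00000168495, chromosome 8, 22245104 to 22254600, plus strand) stood at 8.48 and 8.36 FPKM in the FGF2 libraries and 7.17 and 7.17 FPKM in the NC libraries. The log2 fold change was 0.31 (0.19 to 0.43), with 0.34 and 0.28 from the disjoint read sets. It passed the 1.2-fold bound narrowly and no longer passed with scaling by total counts alone. POLR3E (ENSG00000058600, chromosome 16, 22297375 to 22335103, plus strand) stood at 9.50 and 9.20 FPKM in the FGF2 libraries and 7.17 and 7.64 FPKM in the NC libraries. Its log2 fold change of 0.36 (0.27 to 0.44) was as large, but the remaining reads gave 0.21 against 0.50 from library 1, and it met neither bound. The ratio of POLR3D to POLR3E differed by -0.05 on the log2 scale between the groups, with an interval of -0.19 to 0.10.

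POLR3C, POLR3F and POLR3G encode the 3 subunits of a subcomplex that is needed for initiation and that contacts TFIIIB. Their log2 fold changes spanned 0.07 to 1.23. POLR3C (ENSG00000186141, chromosome 1, 145824088 to 145842505, plus strand) stood at 18.5 and 19.2 FPKM in the FGF2 libraries and 19.8 and 19.6 FPKM in the NC libraries, and its log2 fold change was 0.07 (-0.04 to 0.17). With scaling by total counts alone it was -0.02, so no direction can be given for POLR3C. POLR3F (ENSG00000132664, chromosome 20, 18467127 to 18484643, plus strand) stood at 10.6 and 9.69 FPKM in the FGF2 libraries and 7.91 and 7.89 FPKM in the NC libraries. This gave a log2 fold change of 0.39 (0.23 to 0.54), and the remaining reads gave 0.25, just short of the bound.

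POLR3G (ENSG00000113356, chromosome 5, 90471748 to 90514553, plus strand) encodes the form of its subunit that is abundant in pluripotent stem cells and many dividing cells. FGF2 libraries 1 and 2 had 731 and 1502 counts of it, NC libraries 1 and 2 had 358 and 675, and it stood at 13.2 and 13.5 FPKM against 6.33 and 6.15 FPKM. The FGF2 libraries were about double the NC libraries in level, and the log2 fold change was 1.23 (1.10 to 1.36), a 2.34-fold difference, with 1.15 and 1.30 from the disjoint read sets. This value lay at the 97.8th percentile of all 15030 genes, and POLR3G was the only 1 of the 9 that also met a 1.5-fold bound, which 3.9% of all genes met in that direction. Set against its partners within each library, which removes the scaling, the ratio of POLR3G to POLR3C differed by 1.16 (0.99 to 1.33) and that to POLR3F by 0.84 (0.64 to 1.05) on the log2 scale. Of the 50-base stretches of POLR3G transcripts, 7.7% also occur in transcripts of other genes, mostly the opposite-strand gene MBLAC2 and the pseudogenes POLR3GP1 and POLR3GP2. Both pseudogenes had 0 counts in all 4 libraries.

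The paralog POLR3GL (ENSG00000121851, chromosome 1, 145964702 to 145978848, plus strand) encodes the alternative form of the same subunit, found widely in differentiated tissues. FGF2 libraries 1 and 2 had 46 and 86 counts of it, NC libraries 1 and 2 had 75 and 153, or 1.85 and 1.73 FPKM against 2.96 and 3.11 FPKM. The FGF2 libraries were both below the NC libraries in FPKM, and POLR3GL was called lower at -0.75 (-1.15 to -0.37), with -0.57 and -0.94 from the disjoint read sets. The paralogs therefore differed in opposite directions. The FPKM ratio of POLR3G to POLR3GL was 7.11 and 7.82 in the FGF2 libraries and 2.14 and 1.98 in the NC libraries. That is a log2 difference of 1.98 (1.57 to 2.41), with 1.73 and 2.24 from the disjoint read sets. POLR3GL rested on few counts, and 21.2% of its exon sequence is shared with another gene on the same strand, AC243547.3, which had 0 counts. It was not tested whether reads on those shared exons were counted for either gene.

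**Figure D2:**
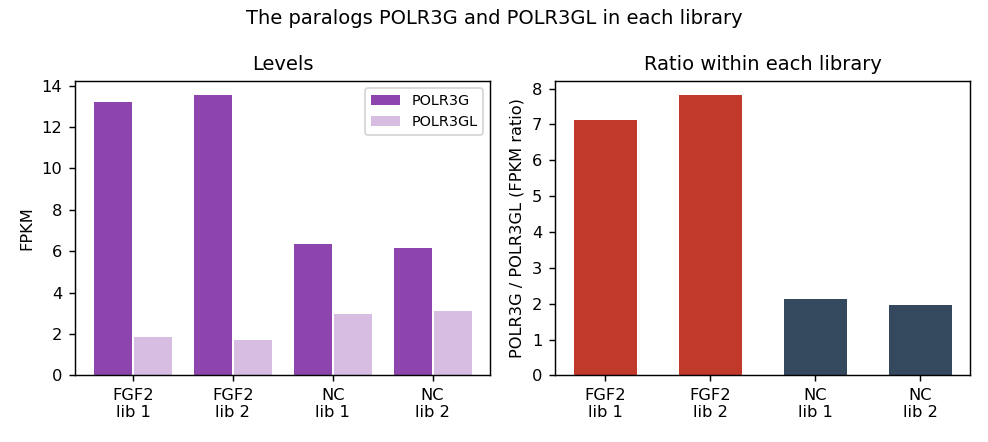
FPKM of POLR3G and POLR3GL (left, dark and light bars) and the ratio of the first to the second (right, red FGF2, dark NC) in each library, with axes from 0. The ratio is 7.11 and 7.82 in the FGF2 libraries and 2.14 and 1.98 in the NC libraries; the libraries of a group share reads.

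BRF1, the TFIIIB subunit used at transfer RNA genes, and MAF1, the repressor, had log2 fold changes below 0, and neither met the rule. BRF1 (ENSG00000185024, chromosome 14, 105209286 to 105315589, minus strand) stood at 4.42 and 4.17 FPKM in the FGF2 libraries and 4.76 and 4.95 FPKM in the NC libraries. Its log2 fold change was -0.16 (-0.26 to -0.06), with -0.01 from library 1 and -0.32 from the remaining reads. MAF1 (ENSG00000179632, chromosome 8, 144104499 to 144107611, plus strand) stood at 42.6 and 40.6 FPKM in the FGF2 libraries and 48.0 and 49.6 FPKM in the NC libraries. Its log2 fold change was -0.20 (-0.27 to -0.12), with -0.08 and -0.33 from the disjoint read sets. For both genes the read sets fell on either side of the counting interval. With only the remaining reads, BRF1 and MAF1 were the 2 genes called lower, under a looser rule that took 30% of all genes as lower.

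The ratio of POLR3A, a gene of the catalytic centre, to MAF1 was higher in the FGF2 libraries. With TMM scaling the larger part of that difference lay in POLR3A (0.41), as MAF1 stood at -0.20 and met neither bound. That split was not stable, unlike the ratio itself. Scaling by total counts alone gave 0.33 for POLR3A and -0.29 for MAF1. Library 1 gave 0.46 and -0.08, and the remaining reads gave 0.37 and -0.33. The FPKM ratio of POLR3A to MAF1 was 0.275 and 0.280 in the FGF2 libraries and 0.190 and 0.183 in the NC libraries, a log2 difference of 0.61 (0.50 to 0.73), with 0.53 and 0.70 from the disjoint read sets. The ratio of POLR3A to BRF1 differed by 0.57 (0.45 to 0.70). Both ratios were higher in the FGF2 libraries than in the NC libraries without overlap, and neither depends on the scaling between libraries.

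**Figure D3:**
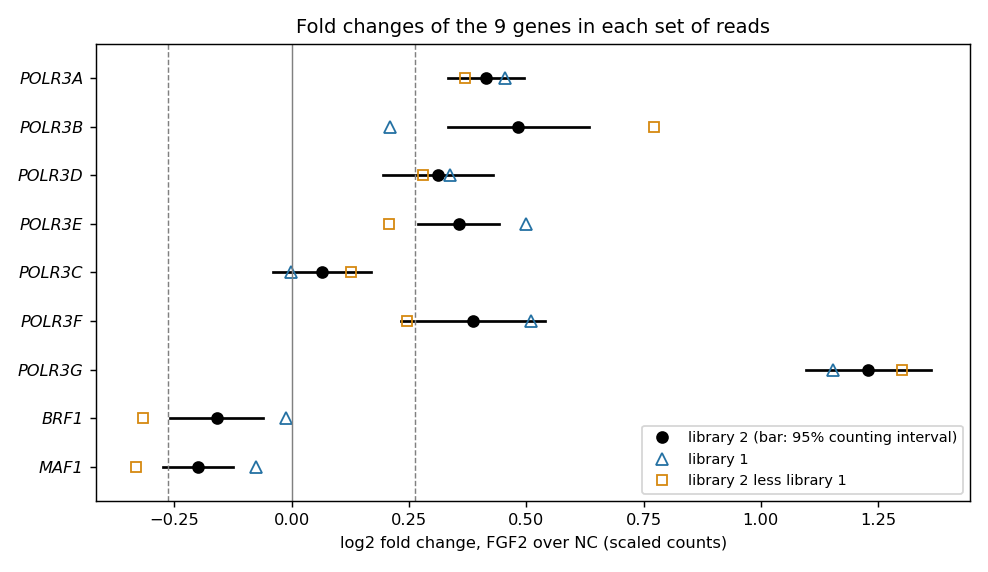
Log2 fold change, FGF2 over NC, of each gene from library 2 (black point, bar for the 95% counting interval), from library 1 (triangle) and from the remaining reads (square). Dashed lines mark 1.2-fold; POLR3G lies at 1.15 to 1.30 in all sets of reads, whereas POLR3B spans 0.21 to 0.77 and MAF1 spans -0.33 to -0.08.

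The order of the levels per exon length was led in every library by MAF1, then POLR3C. POLR3G ranked 3 of 9 in both FGF2 libraries and 7 of 9 in both NC libraries. POLR3A, POLR3F, POLR3E and POLR3D followed each other in that order in all 4 libraries, between 11.7 and 8.36 FPKM in the FGF2 libraries and between 9.12 and 7.17 FPKM in the NC libraries, and POLR3E and POLR3D nearly coincided in NC library 1. BRF1 and POLR3B were lowest, and in the NC group their values overlapped. The length used spans the exons of all annotated transcripts, 13167 bases over 22 transcripts for BRF1 and 2377 bases over 6 for MAF1, which lowers the FPKM of a gene with many annotated exons. The 7 subunit genes summed to 77.7 and 77.7 FPKM in the FGF2 libraries and 62.9 and 62.3 FPKM in the NC libraries. The sum does not show a rise of every subunit. In FGF2 library 2 and NC library 2, POLR3G stood at 13.5 and 6.15 FPKM, but POLR3C stood at 19.2 and 19.6 FPKM.

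The promoter table of RefSeq (build GRCh38.p14) held 12 windows for 6 of the 9 genes, POLR3A, POLR3B, POLR3C, POLR3E, POLR3F and BRF1. They were searched on both strands for the E-box CACGTG, a sequence that MYC and related factors bind, for CCGGAAG, a core of ETS factor sites, and for GTTCGAA, part of a form of the B box by which TFIIIC recognises transfer RNA genes. The E-box occurred in 3 of the 12 windows, at POLR3A, POLR3C and POLR3E, and in 7.26% of all 35116 promoter windows. CCGGAAG occurred in 2, at POLR3A and POLR3C, and in 10.3% of all windows. The B box letters occurred in 1, at POLR3E, and in 0.572% of all windows. These are matches of letters only. The windows of POLR3A, called higher, of POLR3C, which met neither bound, and of POLR3E, which holds the B box letters, are shown for the 250 bases before the RefSeq start and the 30 after it, with the motifs in capitals.
POLR3A (chr10:78029486-78029765, minus strand): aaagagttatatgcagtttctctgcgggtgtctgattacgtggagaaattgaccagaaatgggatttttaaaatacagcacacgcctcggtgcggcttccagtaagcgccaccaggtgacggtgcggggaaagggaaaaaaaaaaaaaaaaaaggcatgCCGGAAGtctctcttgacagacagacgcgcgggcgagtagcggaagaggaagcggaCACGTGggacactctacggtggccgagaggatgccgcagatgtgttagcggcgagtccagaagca
POLR3C (chr1:145823950-145824229, plus strand): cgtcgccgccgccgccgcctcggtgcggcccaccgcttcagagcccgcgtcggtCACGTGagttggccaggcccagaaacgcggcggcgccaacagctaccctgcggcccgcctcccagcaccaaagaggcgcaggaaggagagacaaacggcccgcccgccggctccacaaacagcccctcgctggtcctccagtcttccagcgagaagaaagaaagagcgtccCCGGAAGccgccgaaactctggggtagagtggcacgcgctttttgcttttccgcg
POLR3E (chr16:22297159-22297438, plus strand): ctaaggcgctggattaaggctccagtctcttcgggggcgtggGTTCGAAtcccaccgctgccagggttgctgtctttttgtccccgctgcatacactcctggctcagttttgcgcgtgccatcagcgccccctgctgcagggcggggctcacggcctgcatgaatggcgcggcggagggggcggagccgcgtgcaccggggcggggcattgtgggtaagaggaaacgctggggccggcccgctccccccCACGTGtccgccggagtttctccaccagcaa

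The E-box and the ETS core were thus in the POLR3A window and in 1 of the 2 POLR3C windows, the one shown. These genes had log2 fold changes of 0.41 and 0.07. In the POLR3E window the E-box spans the RefSeq start itself, at 22297409. RefSeq places a leucine transfer RNA gene, TRL-AAG2-4, at chr16:22297140-22297221. A template of Pol III thus ends 187 bases before the RefSeq start of a Pol III subunit gene. The GENCODE coordinates given above for POLR3E begin at 22297375, nearer to the transfer RNA gene. Of the 35116 windows, 29 (0.0826%) overlap a RefSeq transfer RNA gene.

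Further subunits of the enzyme reported here ran from -0.75 for POLR3GL to 0.59 for POLR1C in log2 fold change. Besides POLR3GL, the Pol III subunit genes POLR3K and CRCP had log2 fold changes of 0.34 (0.20 to 0.48) and 0.30 (0.19 to 0.41), and neither met a bound. Of the pair shared with RNA polymerase I, POLR1C was higher at 0.59 (0.45 to 0.73), with 18.2% of its exon sequence on the opposite strand of other genes, and POLR1D stood at 0.21 (0.11 to 0.32). Of the 5 subunits shared by all 3 nuclear polymerases, POLR2H was higher at 0.39 (0.30 to 0.48) and the other 4 met neither bound, the lowest being POLR2E at 0.08 (0.03 to 0.12).

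Among the initiation factors few genes met the rule. TFIIIB had 0 of 3 other subunit genes called, with BDP1 at 0.22 (0.15 to 0.29), TBP at 0.18 (0.03 to 0.32) and BRF2, the BRF1 paralog used at U6-type promoters, at 0.19 (-0.09 to 0.47). BRF2 shares 59% of its exon sequence with ADGRA2 on the opposite strand and is uncertain. The ratio of BRF1 to BDP1 was 0.494 and 0.454 in the FGF2 libraries and 0.544 and 0.590 in the NC libraries, a log2 difference of -0.38 (-0.50 to -0.26), although the disjoint read sets gave -0.14 and -0.63. TFIIIA and TFIIIC had 0 of 7 called and a median of 0.13, from GTF3A, the factor of the smallest ribosomal RNA gene, at 0.34 (0.26 to 0.43) to GTF3C1, the largest TFIIIC subunit, at -0.03 (-0.08 to 0.02).

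The complex SNAPc, which starts transcription of small nuclear RNA genes by Pol II and Pol III, held the highest log2 fold change among the transcription machinery genes listed here. SNAPC1 (ENSG00000023608, chromosome 14, 61762357 to 61796428, plus strand) stood at 17.5 and 17.2 FPKM in the FGF2 libraries and 6.39 and 6.35 FPKM in the NC libraries. The log2 fold change was 1.53 (1.37 to 1.69), a 2.89-fold difference, with 1.54 and 1.51 from the disjoint read sets. Of its exon sequence 21.3% is shared with AL137129.1 on the same strand, which had 0 counts. Whether reads on the shared exons were counted for either gene was not tested. None of the other 6 genes of this list was called, and the lowest was SNAPC5 at -0.25 (-0.44 to -0.07).

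Subunits found only in the other nuclear polymerases were compared by the same rule. Of 6 genes for RNA polymerase I, which makes the large ribosomal RNA, 5 were higher and 0 lower and the median was 0.48, led by CD3EAP at 0.81 (0.60 to 1.02), and the lowest was POLR1A at 0.27 (0.21 to 0.32). The others called were ZNRD1 (0.76), POLR1B (0.53), TWISTNB (0.44) and POLR1E (0.40). CD3EAP and ZNRD1 share 45.1% and 24.5% of their exon sequence with genes on the opposite strand. Of 7 genes for RNA polymerase II, which makes messenger RNA, 1 was higher and 0 lower, the median being 0.17. The gene called, POLR2I, had 92 counts in FGF2 library 2 and 42 in NC library 2, a 2.29-fold difference (log2 interval 0.66 to 1.77), and 79.6% of its exon sequence lies opposite other genes, and the lowest, POLR2G, stood at -0.03 (-0.13 to 0.07). The catalytic genes POLR1A, POLR3A and POLR2A stood at 0.27, 0.41 and 0.07. With 1 sample per group, whether these lists differ from each other was not tested.

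**Figure D4:**
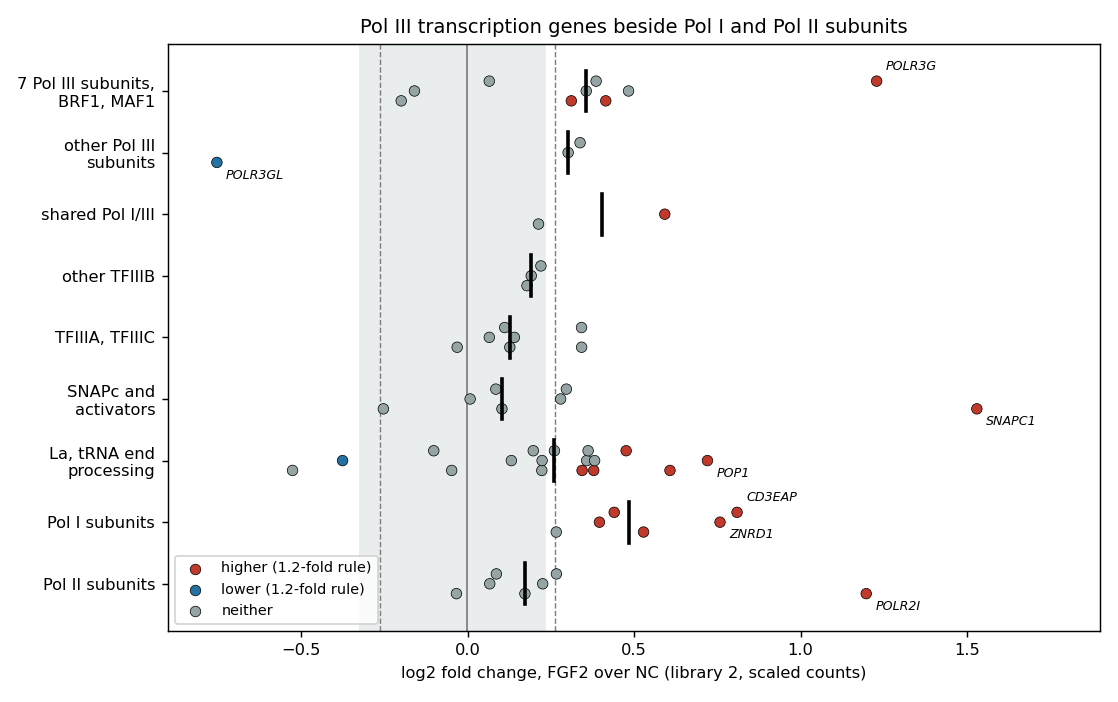
Log2 fold change, FGF2 over NC (horizontal axis, library 2), of each gene reported by list, with black bars at list medians; the grey band spans the quartiles of all 15030 genes and dashed lines mark 1.2-fold. POLR3G (1.23) and SNAPC1 (1.53) lie far to the right, POLR3GL (-0.75) far to the left, and the Pol I list has a median of 0.48 against 0.17 for Pol II.

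Genes for proteins known to act on MAF1 or TFIIIB had a median log2 fold change of 0.12 over the 15 reported here. The highest was PPP2CA, a catalytic subunit of phosphatase PP2A, at 0.30 (0.26 to 0.35), and the lowest of those reported was MAPK3, an ERK kinase gene, at -0.39 (-0.52 to -0.25), which met neither bound. MTOR stood at 0.08 (0.03 to 0.14) and MYC at 0.12 (0.08 to 0.16). Of the products of Pol III, RMRP was listed at 0 counts in all 4 libraries, and 98.5% of its exon sequence is shared with a second RMRP entry of the annotation. Of 20 Pol III transcripts looked for by name, only RMRP was among the deposited genes, so the others could not be measured here. Most of the short transcripts of Pol III also lack the poly(A) tail by which these libraries were made.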

How the data were processed

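Per the file headers, the authors deposited raw read counts and FPKM values (counts per exon length and total) for 51103 genes in each of 4 libraries. The submitters' processing notes name HISAT2, HTSeq 0.13.5 and GRCh38, and no source used here states the annotation release. All 51103 identifiers are in GENCODE v29, and the FPKM of 99.5% of the 11923 genes above 20 counts throughout implied a length equal to the merged exon length there, so coordinates are from that release. The library kit, per the labels' protocols, does not mark strand, so reads of genes that overlap on opposite strands cannot be separated. Among genes averaging 10 to 1000 counts per read set, chi-square per gene between library 1 and the remaining reads of library 2 averaged 2.70 ± 0.058 (SE, 10207 genes) for FGF2 and 2.62 ± 0.040 (10575 genes) for NC, where counting noise alone gives 1. Each pair counts as 1 sample because the counts of library 2 include those of library 1.

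Genes were kept with edgeR 4.0.16 filterByExpr (R 4.3.3), and read sets were scaled by TMM over them. Scaling factors were 0.963 to 0.977 for FGF2 and 1.03 for NC. The 1.2-fold rule replaces a test and can miss differences near its bound. POLR3E and POLR3F met neither bound with 1.28-fold and 1.31-fold differences in library 2, so meeting neither does not show a lack of change. Intervals are exact Clopper-Pearson bounds of the share of counts and cover counting error only, and ratios of ratios carry exact conditional intervals. Alternatives were DESeq2 1.42.0 size factors, total counts, no filter, 1 added before the log, a 1.5-fold bound, FPKM and other choices of library. Each of the 9 genes is named; of the other lists, the genes called and the highest and lowest are named, with both paralogs. Some further genes (MYC, MTOR and single list members) were added after their values were seen. The genes and lists were chosen with earlier results of these data known. A few genes of the comparison lists are not reported here, and the lists' counts and medians leave them out.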

Additional observations from a re-analysis of the deposited data

How the results depend on the processing

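With 3 genes called higher and 0 lower, and a median log2 fold change of 0.36, DESeq2 size factors, no filter on low counts and 1 added before the log kept both counts. The count higher was 1 at a 1.5-fold bound and 5 when both deposited libraries, whose reads overlap, were used as they stand, which took 16.8% of all genes as higher. With deposited FPKM it was 4, as POLR3D no longer passed and POLR3E and POLR3F did, beside 11.4% of all genes higher and 25.6% lower. That setting also used the overlapping libraries as they stand, which makes the rule looser. POLR3E and POLR3F passed there with smaller log2 fold changes, 0.26 and 0.29 against 0.36 and 0.39. Leaving out libraries gave 4 to 6 higher, 0 to 2 lower and a median of 0.25 to 0.37, with fewer read sets having to pass and 16.3% to 24.9% of all genes then higher and 21.3% to 30% lower. The 6 came without FGF2 library 1, where no reads were removed because library 2 holds them. The median was 0.27 with total counts alone and 0.26 with deposited FPKM, which carries no scaling beyond the total. Of 108 single-gene values under these settings, 91 stayed within the counting interval, 17 lay outside it and 0 of those called changed sign. Values without FGF2 library 1 or without NC library 1 repeat the main ratio, so they could not move and are among the 91. No paired analysis was possible because the result comes from no test, as the libraries of a group share reads. Depth sets counting intervals of 0.15 to 0.31 in full width on the log2 scale for the 9 genes, but the wider spread between read sets and any difference between cultures are not covered.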

Other observations

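The proteins that receive new Pol III transcripts and trim their ends were also measured. Of the 17 genes reported here for the La protein and for transfer RNA end processing and splicing, 5 were higher and 1 was lower by the 1.2-fold rule, with a median log2 fold change of 0.26, against 12.1% and 16.3% of all genes. The highest was POP1, the largest protein of RNase P, the enzyme that cuts the leader from transfer RNA precursors, with 1727 counts in FGF2 library 2 and 1104 in NC library 2 (0.72, 0.61 to 0.83). Further RNase P genes were higher, RPP40 at 0.61 (0.45 to 0.77) and RPP30 at 0.34 (0.25 to 0.44), as were RPP14 (0.48) and ELAC2, which cuts the trailer (0.38). RPP14 shares 22.5% of its exon sequence with HTD2 on the same strand. TSEN15, a subunit of the splicing endonuclease, was lower at -0.38 (-0.47 to -0.29), and RPP21 was lowest at -0.53 but had only 15 counts in FGF2 library 2 and 23 in NC library 2.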
